A study of Mus musculus with 12 samples.

Results

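The interferon regulatory factors are a family of transcription factors that share a DNA-binding domain and recognise GAAA repeats in the promoters of interferon and antiviral genes. They were chosen here by gene symbol, with earlier results of these data known. The 8 members were *Irf1*, *Irf2*, *Irf3*, *Irf4*, *Irf5*, *Irf7*, *Irf8* and *Irf9*, among the 49315 genes counted in the brain. The brains came from 12 mice, 6 in each of 2 groups, collected 14 d post-stroke. All recipients were CD45.1 Pep Boy mice of 8 to 12 weeks that received head-shielded irradiation and, 8 to 10 weeks after transplantation, a 30 min occlusion of the right middle cerebral artery. In the WT group, the graft held 10% CD45.2 *Tet2*+/+ bone marrow (BM) cells, and in the *Tet2*-KO group it held 10% CD45.2 *Tet2*-/- BM cells, with donors of 8 to 14 weeks. The remaining 90% of each graft was CD45.1 *Tet2*+/+ marrow, so that the recipient brain and most of the graft carried intact *Tet2* in both groups. There was no brain without stroke in these libraries.

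In infection and sterile injury, pattern recognition receptors such as Toll-like receptors, RIG-I, MDA5 and STING activate the kinases TBK1 and IKKε, which phosphorylate IRF3 and IRF7 and so switch on interferon genes. Secreted interferon then acts through its receptor and JAK kinases to form ISGF3, the complex that holds IRF9 and STAT2, which binds the interferon-stimulated response element (ISRE). Interferon-γ instead acts through the gamma-activated site (GAS) of genes such as *Irf1*. In the brain, IRF8 is required for normal microglia, and IRF5 and IRF7 are expressed chiefly by microglia and infiltrating myeloid cells.

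Depth ran from 12000261 to 15340787 counts in the WT libraries and from 12625047 to 21049763 in the *Tet2*-KO libraries. The level of *Tet2*, as counts scaled to the normalised library size (CPM), averaged 131.7 ± 7.60 (SD) over the 6 WT mice against 130.9 ± 7.79 over the 6 *Tet2*-KO mice. Since the recipient brain is *Tet2*-sufficient, this gene cannot serve as a check of the labels. The titles and genotype of the *Tet2*-KO libraries name the knockout, whereas their treatment label names a control graft, and the groups follow the titles. Neuron markers, summed over 10 genes, were at 4266 to 5997 CPM with WT grafts and 5520 to 7295 CPM with *Tet2*-KO grafts, so the defining markers of the labelled tissue were present. Libraries stood apart within both groups: *Tet2*-KO replicate 5 lay among the WT libraries for most members and WT replicate 2 lay above the rest. Values without them are given where they matter. Both were singled out by the values of the members themselves. Leaving out *Tet2*-KO replicate 5 therefore favours a lower call and is no independent support.

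Before the values, the promoters of *Irf1*, *Irf2* and *Irf8* are shown, since they were the members whose 250 bases before the first annotated start held a GAS or an ISRE. They are taken from RefSeq on GRCm38.p6, the same assembly as mm10, and all 8 members had an entry. The *Irf2* sequence is cut at the annotated start of the gene. Capitals mark the motifs, searched on both strands. They are TTCNNNGAA for the GAS, GAAA followed by any 2 bases and GAAA for the ISRE, GGAA followed by any 2 bases and GAAA for the ETS-IRF composite, and TATAAA for a TATA box.

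Irf1, chr11:53769764-53770013, plus strand: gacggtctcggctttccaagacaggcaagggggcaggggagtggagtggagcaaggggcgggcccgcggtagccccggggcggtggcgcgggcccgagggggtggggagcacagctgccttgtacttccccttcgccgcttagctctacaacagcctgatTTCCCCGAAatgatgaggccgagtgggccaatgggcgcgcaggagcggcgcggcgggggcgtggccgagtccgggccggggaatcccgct

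Irf2, chr8:46739495-46739731, plus strand: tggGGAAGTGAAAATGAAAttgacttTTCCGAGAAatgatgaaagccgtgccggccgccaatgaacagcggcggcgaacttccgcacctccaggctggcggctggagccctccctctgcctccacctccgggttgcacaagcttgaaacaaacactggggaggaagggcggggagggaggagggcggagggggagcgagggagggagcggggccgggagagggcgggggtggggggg

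Irf8, chr8:120736108-120736357, plus strand: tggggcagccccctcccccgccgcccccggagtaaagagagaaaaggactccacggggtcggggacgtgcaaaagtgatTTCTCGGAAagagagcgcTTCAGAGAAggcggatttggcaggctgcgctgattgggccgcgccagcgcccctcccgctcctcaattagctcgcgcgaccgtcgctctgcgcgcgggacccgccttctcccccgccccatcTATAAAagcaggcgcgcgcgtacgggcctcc

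*Irf1* held 1 GAS match, 90 bases before its start. *Irf8*, whose product drives the development of macrophages and microglia, held GAS matches 171 and 153 bases before its start and a TATA box 31 bases before it. *Irf2* held an ISRE match, which overlaps its ETS-IRF composite match, and a GAS match within a few bases of them. *Irf4* and *Irf7* held only a TATA box, and *Irf3*, *Irf5* and *Irf9* held none of these letters. Among 32851 windows of the same length before annotated mouse starts, 7.02% held a GAS match, 2.98% an ISRE match, 2.30% a composite match and 12.4% a TATA box. A match describes the letters in this window and does not show that a factor binds there.

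All 8 members were counted and passed the filter on low counts. As a family they were lower in brains that received *Tet2*-KO BM cells: the fitted log2 fold change was below 0 for all 8, whereas it was below 0 for 47.7% of all tested genes, and its median was -0.63 against 0.01 over all tested genes. None of the 8 passed an adjusted p of 0.05 in edgeR's quasi-likelihood test, at which 0.0246% of the 20290 tested genes were called. At an unadjusted p below 0.05, 7 of 8 were called, all lower, against 12.2% of all genes called lower. An exact two-sided permutation test over the 12 mice, whose smallest possible p is 0.00216, also gave 7 of 8 below 0.05, against 11.9% of all genes called lower. For no member did the highest *Tet2*-KO value stay under the lowest WT value, an arrangement shown by 0.641% of genes. These are bulk samples, in which fewer cells of a type and less RNA per cell cannot be told apart.

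How many members passed an adjusted p of 0.05 varied with the test and with 1 mouse. DESeq2's Wald test called *Irf1* alone, beside 3.71% of all genes called lower, or *Irf1*, *Irf2*, *Irf3* and *Irf9* when run on the genes of the edgeR filter, beside 5.13%. Limma-voom with sample quality weights called *Irf1*, *Irf5*, *Irf7*, *Irf8* and *Irf9*, beside 7.01% of genes. Without *Tet2*-KO replicate 5, edgeR called *Irf1*, *Irf2*, *Irf3* and *Irf7*, beside 7.30% of genes, and DESeq2 called every member but *Irf4*, beside 8.54%. Without WT replicate 2 as well, edgeR called *Irf1* and *Irf7*, beside 4.94% of genes. The DESeq2 fit without *Tet2*-KO replicate 5 and the edgeR fit without both mice were not planned. The number of members at an unadjusted edgeR p below 0.05 was 4 when WT replicate 2 or *Tet2*-KO replicate 2, 3 or 6 was left out, beside 7.92%, 9.94%, 9.77% and 9.66% of all genes called lower in those fits, in that order. With 1 surrogate variable in the model, the median of the family was -0.0556, only *Irf1* had an unadjusted p below 0.05 beside 2.72% of genes called lower, and *Irf4*, *Irf5*, *Irf8* and *Irf9* had a log2 fold change above 0. That variable followed the level of the family itself over the 12 libraries (r = 0.97).

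**Figure D1:**
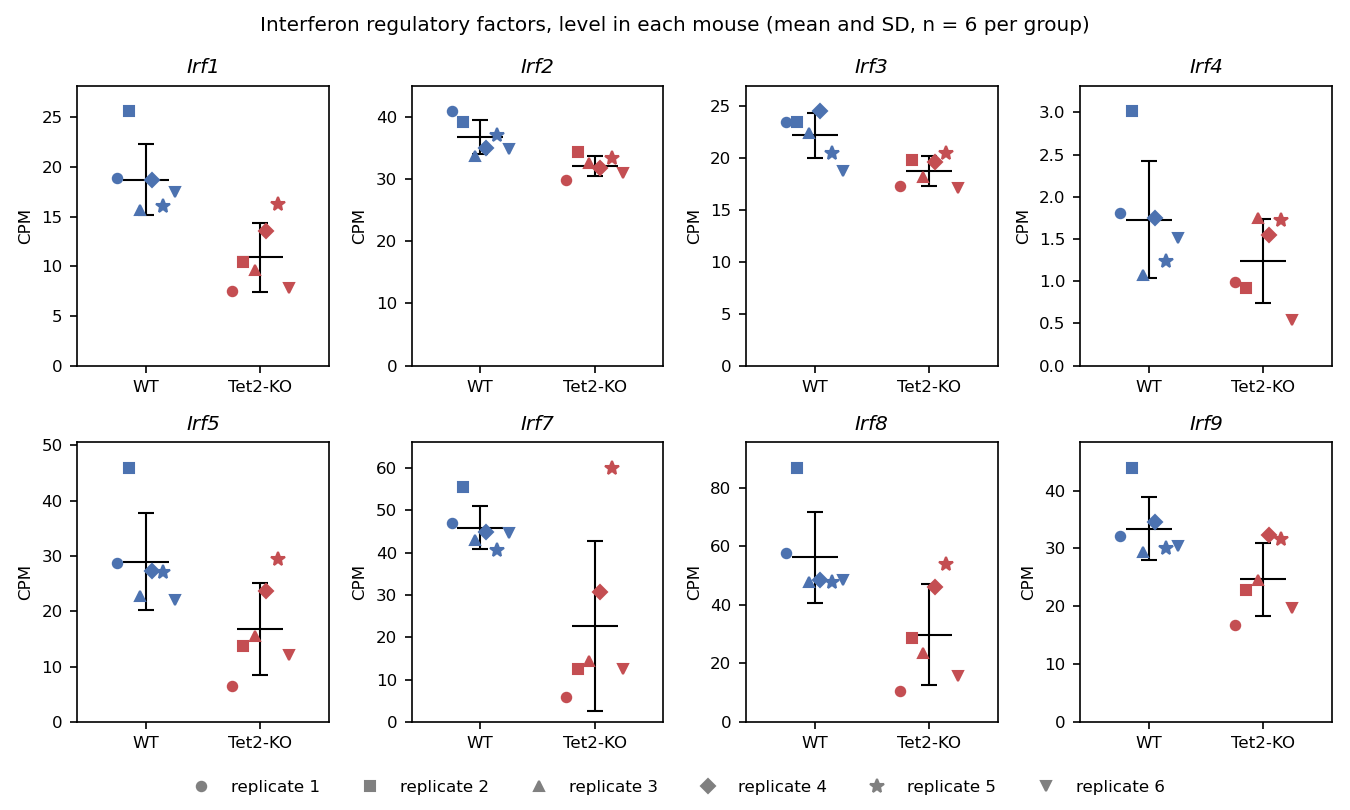
Level of each interferon regulatory factor in CPM (y axes from 0, each panel with its own scale) in 6 WT and 6 *Tet2*-KO mice, with the mean and SD in black and a symbol for each replicate number. In the *Irf7* panel, 5 *Tet2*-KO points lie under the WT points and replicate 5, at 60.1 CPM, lies over them.

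*Irf3* and *Irf7* encode the factors that switch on interferon genes. *Irf7* (chr7:141262706-141266481, minus strand), which is itself induced by interferon and amplifies the response, was at 40.6, 44.8 and 55.5 CPM (lowest, median and highest) in the WT mice and at 5.95, 13.5 and 60.1 CPM in the *Tet2*-KO mice. All but 1 of the *Tet2*-KO mice were under the lowest WT value, replicate 4 being the nearest at 30.6 CPM, and replicate 5 exceeded the highest. Group means were 45.9 ± 5.16 CPM and 22.7 ± 20.1 CPM (± SD over 6 mice). The fitted log2 fold change of *Irf7*, -1.03 ± 0.464 (SE), had an edgeR adjusted p of 0.216 and an exact permutation p of 0.0216. The spread of *Irf7* was the widest of the family in the *Tet2*-KO group, with a coefficient of variation of 88.4% against 11.2% in the WT group. Without replicate 5, singled out by its high value, the log2 fold change was -1.58 (edgeR adjusted p = 0.0202).

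*Irf3* (chr7:44997648-45002848, plus strand), whose product is present before any stimulus and is activated by phosphorylation, had a much narrower range among mice. It was at 18.7, 22.9 and 24.4 CPM (lowest, median and highest) in the WT mice and 17.1, 18.8 and 20.5 CPM in the *Tet2*-KO mice. The groups overlapped, and 3 of the 6 *Tet2*-KO values were under the lowest WT value. For *Irf3* the log2 fold change was -0.24 ± 0.0749 (SE), with an edgeR adjusted p of 0.123 and an exact permutation p of 0.0173.

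*Irf1* (chr11:53770014-53778374, plus strand) encodes the activator induced by interferon-γ, and it had the smallest p of the family in edgeR. It was at 15.7, 18.1 and 25.6 CPM (lowest, median and highest) in the WT mice and 7.50, 10.1 and 16.3 CPM in the *Tet2*-KO mice. Only *Tet2*-KO replicate 5 reached the WT range. Group means were 18.7 ± 3.61 CPM and 10.9 ± 3.44 CPM (± SD over 6 mice). The fitted difference was -0.78 ± 0.187 on the log2 scale (SE), with an edgeR adjusted p of 0.110 and an exact permutation p of 0.00649. DESeq2 gave an adjusted p of 0.00557 for *Irf1*. Leaving out 1 mouse at a time, the permutation p of *Irf1* stayed between 0.00216 and 0.0152.

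*Irf2* (chr8:46739732-46847458, plus strand) encodes a factor that competes with IRF1 for the same sites and mostly represses. It was at 33.7, 36.0 and 40.8 CPM (lowest, median and highest) in the WT mice and 29.9, 32.1 and 34.3 CPM in the *Tet2*-KO mice. The *Tet2*-KO values were under the lowest WT value in 5 mice, and the spread was the narrowest of the family, with coefficients of variation of 7.61% and 5.01%. The difference was small beside those of *Irf1* or *Irf7*, at -0.19 ± 0.0586 on the log2 scale (SE), with an edgeR adjusted p of 0.123 and an exact permutation p of 0.00433.

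*Irf5* and *Irf8* are expressed mainly by myeloid cells. *Irf8* (chr8:120736358-120756694, plus strand) was at 47.7, 48.5 and 86.9 CPM (lowest, median and highest) in the WT mice and 10.4, 26.1 and 54.1 CPM in the *Tet2*-KO mice. Replicate 5 was the only *Tet2*-KO mouse inside the WT range. Group means were 56.2 ± 15.5 CPM and 29.8 ± 17.2 CPM (± SD over 6 mice), and the fitted difference was -0.92 ± 0.370 on the log2 scale (SE). Its edgeR adjusted p was 0.179 and its exact permutation p was 0.0238. *Irf5* (chr6:29526625-29541871, plus strand), which acts downstream of Toll-like receptors on inflammatory cytokine genes, was at 22.1, 27.1 and 46.0 CPM in the WT mice and 6.44, 14.7 and 29.5 CPM in the *Tet2*-KO mice. *Tet2*-KO replicates 4 and 5 were within the WT range and the other 4 were under it. The fitted difference of *Irf5* was -0.79 ± 0.328 on the log2 scale (SE), with an edgeR adjusted p of 0.188. Its exact permutation p was 0.0325, and 0.0606 at most when 1 mouse was left out.

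*Irf9* (chr14:55603571-55610030, plus strand), the DNA-binding subunit of ISGF3, was at 29.4, 31.3 and 44.0 CPM (lowest, median and highest) in the WT mice and 16.7, 23.7 and 32.3 CPM in the *Tet2*-KO mice. Again replicates 4 and 5 of the *Tet2*-KO group lay within the WT range and the other 4 under it. The fitted difference was -0.44 ± 0.161 on the log2 scale (SE; edgeR adjusted p = 0.150). The exact permutation p of *Irf9* was 0.0325, and 0.0584 at most when 1 mouse was left out.

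*Irf4* (chr13:30749226-30766976, plus strand), a factor of B cells, plasma cells, T cells and some dendritic cells, was near the lower limit of what was counted, with 15 to 42 counts in a WT library and 7 to 30 in a *Tet2*-KO library. It was at 1.08, 1.63 and 3.01 CPM (lowest, median and highest) in the WT mice and 0.539, 1.27 and 1.75 CPM in the *Tet2*-KO mice. The groups overlapped for *Irf4*, and the fitted difference was -0.48 ± 0.290 on the log2 scale (SE), with an edgeR adjusted p of 0.333 and an exact permutation p of 0.171. Without WT replicate 2, the mouse with the highest level, the difference was -0.25 (edgeR adjusted p = 0.687). A difference was not detectable at this depth.

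**Figure D2:**
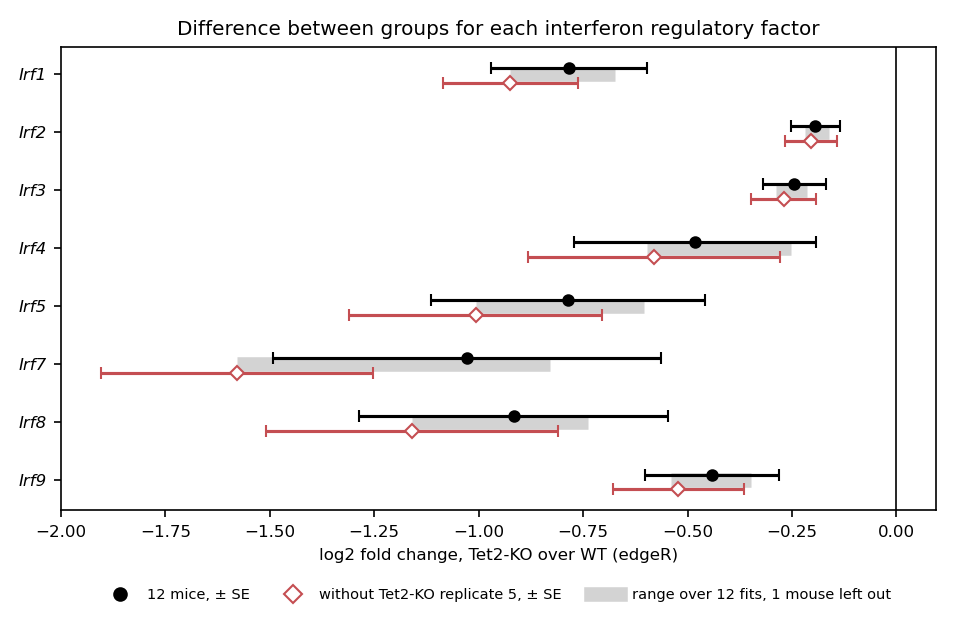
Log2 fold change of each member (x axis, *Tet2*-KO over WT, edgeR) with its SE in 12 mice (black) and without *Tet2*-KO replicate 5 (open red), with a grey bar for the range when each mouse was left out in turn. All plotted values lie below 0, and *Irf7* has the widest range, from -1.58 to -0.83.

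The exons of 5 members share bases with another gene: *Irf1* with *Gm17334* (135 bases), *Irf3* with *Bcl2l12* (88), *Irf5* with *Tnpo3* (411) and *Irf7* with *Phrf1* (45) on the opposite strand, and *Irf9* with *Rnf31* (123) on the same strand. Whether the counting used strand is not given in the sources used here, so reads in these bases cannot be assigned with certainty.

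On a scale per length of exon (FPKM, computed here as CPM divided by the exon length in kilobases), *Irf7* was the highest member in the WT brain at 12.2 ± 1.37 (SD, n = 6), followed by *Irf5* at 9.97 ± 3.01 and *Irf8* at 7.97 ± 2.20. *Irf3* at 6.44 ± 0.628 and *Irf9* at 6.21 ± 1.02 FPKM came next, then *Irf2* at 4.97 ± 0.378 and *Irf1* at 4.72 ± 0.908 FPKM. Each of these neighbours in the order overlapped the next over the 6 WT mice, and only *Irf4*, at 0.353 ± 0.140 FPKM, stood clear of the member above it. In the *Tet2*-KO brain *Irf7* was at 6.02 ± 5.32 FPKM, *Irf5* at 5.80 ± 2.88 FPKM and *Irf3* at 5.44 ± 0.408 FPKM.

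Read by mouse, the members ran together within the *Tet2*-KO group. The median of the 8 members, as a log2 difference from the WT mean, was -1.14 in *Tet2*-KO replicate 1 and -1.22 in replicate 6, and in both of these mice all 8 members were under the WT range. It was -0.79, -0.64 and -0.23 in replicates 2, 3 and 4, with 6, 7 and 4 members under the WT range. It was -0.04 in replicate 5, where only *Irf2* was under the WT range and *Irf7* was above it. The share of all genes under the WT range in each mouse is not given here. These counts therefore do not show a trait particular to the family. In the WT group the same median was 0.44 in replicate 2 and between -0.18 and 0.06 in the other 5 mice.

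*Irf1*, *Irf5*, *Irf7*, *Irf8* and *Irf9* followed each other among mice. After the group means were removed, Pearson's r among these 5 members was between 0.86 and 0.96 over the 12 libraries for all 10 pairs. For the 18 pairs that include *Irf2*, *Irf3* or *Irf4* it was between 0.35 and 0.78. These are descriptions over libraries that share depth and composition. The ratio of a member to another differed between groups at exact permutation p below 0.05 in 14 of 28 pairs, a comparison chosen after the values were seen, and in 5 to 9 pairs when any WT mouse or *Tet2*-KO replicate 1, 2 or 3 was left out, or 10 to 17 pairs when replicate 4, 5 or 6 was. The pairs share members and are not independent tests, and the share over pairs of other genes is not given here. The ratio of *Irf1* to *Irf9* was lower by 0.35 on the log2 scale in the *Tet2*-KO group (exact permutation p = 0.00216, the smallest the design allows). This was the smallest p of the 28 pairs, with no correction for their number. The ratio of *Irf1* to *Irf5* differed by 0.08 (p = 0.745, exact permutation).

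The genes whose levels were most like each member, among 19036 genes of at least 1 CPM, were also listed, as a description over libraries that share a composition. *Irf7* was most like *Siglec1*, *Trim30a* and *Isg15* (r = 0.99 for each over 12 libraries). *Irf8* was most like *Vav1*, *Ctsz* and *H2-D1*, and *Irf5* most like *Naip2*, *Nckap1l* and *H2-Q4*, each with r at or above 0.99. *Irf1* was most like *Efemp1*, *Serping1* and *Rbm47*, and *Irf9* most like *Aebp1*, *Tmem176b* and *B4galt1*. The likeness is not particular to those genes, because 943 to 1351 genes had r above 0.9 with each of these 5 members. *Irf2* was most like *Aprt*, *Rilpl2* and *Ralb*, *Irf3* most like *Nfkbid*, *Pla2g2d* and *Tk1*, and *Irf4* most like *Rps2*, *Rarg* and *Slc35f6*, with 10, 37 and 27 genes above that r.

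The family was then set against microglia markers, by dividing each member in each mouse by the geometric mean of 10 homeostatic microglia markers. Their log2 fold changes ran from 0.05 for *P2ry12* to -0.75 for *Fcrls*, and whether their mean follows microglia content was not tested. Those markers were themselves lower in the *Tet2*-KO group by 0.38 on the log2 scale (exact permutation p = 0.119), with an SD of 0.27 among WT and 0.49 among *Tet2*-KO mice. Of the 10, 2 were lower at an unadjusted p below 0.05 in edgeR, against 12.2% of all genes. Without *Tet2*-KO replicate 5, 4 of 10 were, a fit in which 14.6% of all genes were called lower. Relative to them, 4 of 8 members were lower at exact permutation p below 0.05, against 4.44% of all tested genes divided by the same reference. *Irf8* was lower by 0.72 on the log2 scale (exact permutation p = 0.00216), with all 6 *Tet2*-KO values under the lowest WT value, an arrangement that 0.636% of all genes showed on this ratio. The margin was thin in replicate 5, at a log2 ratio of -0.62 against -0.61 in the lowest WT mouse. *Irf7* was lower by 1.03 (p = 0.0152, exact permutation), *Irf5* by 0.51 (p = 0.0130, exact permutation) and *Irf1* by 0.43 (p = 0.00433, exact permutation). For *Irf9* (-0.08, p = 0.385), *Irf4* (-0.09, p = 0.745), *Irf3* (0.14, p = 0.498) and *Irf2* (0.19, p = 0.400) the exact permutation p was above 0.05.

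**Figure D3:**
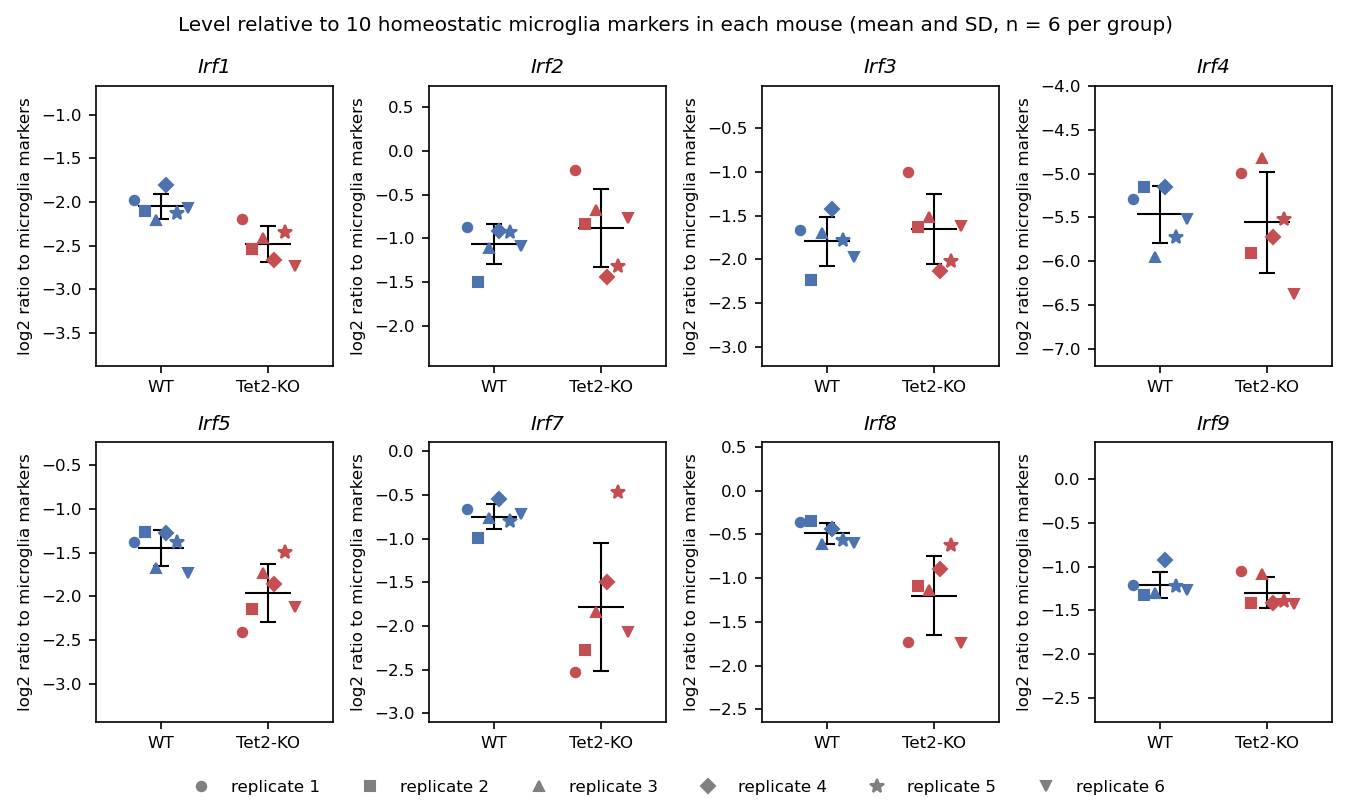
Log2 ratio of each member to the geometric mean of 10 homeostatic microglia markers (y axes of the same span, offset by panel) in 6 WT and 6 *Tet2*-KO mice, with mean and SD in black. For *Irf8* the 6 *Tet2*-KO points lie under the lowest WT point, and for *Irf2*, *Irf3*, *Irf4* and *Irf9* the groups overlap.

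Transcripts of markers of infiltrating cells were lower alongside the family. By immunostaining at the same time after stroke, however, the paper found similar numbers of macrophages and T cells in both groups. From these counts the paper proposes that the mutant graft did not alter the infiltration of either cell type. Whether the marker RNA follows the number of such cells was not tested. Of 10 monocyte and macrophage markers, 9 had an unadjusted p below 0.05 and were lower, with a median log2 fold change of -1.71, and their sum was 393 to 1014 CPM in the WT group and 37.5 to 515 CPM in the *Tet2*-KO group, the highest being replicate 5. Of 8 neutrophil markers, 4 passed the filter and all 4 were lower at an unadjusted p below 0.05. The filter can pass a gene on its WT level alone, so the tested genes favour a lower call. *S100a9*, for one, averaged 2.18 CPM in the WT and 0.305 CPM in the *Tet2*-KO group. Among the untested, *Retnlg* had 46 counts over the WT and 47 over the *Tet2*-KO libraries, *Ngp* 61 and 58, and *Camp* 17 and 15. *S100a8* (log2 fold change -2.16) and *S100a9* (-2.84), subunits of calprotectin, fell at an edgeR adjusted p of 0.0364 each. The summed neutrophil markers were at 7.06 to 20.7 CPM in the WT group and 1.77 to 6.12 CPM in the *Tet2*-KO group, and the defining marker *Ly6g* was at 0 in all *Tet2*-KO libraries and near 0 in the WT ones. The 4 tested T cell and NK cell markers and 4 of 5 tested B cell and plasma cell markers were lower at an unadjusted p below 0.05. The same limit of the filter holds for these lists. Lower at that p were also 4 of 9 dendritic cell markers and 4 of 9 endothelial and mural cell markers. Over all tested genes, the share called lower at that p was 12.2%, and the share called in either direction was 23.1%. Of 10 neuron markers, 8 were higher at that p (median log2 fold change 0.21), whereas the medians of the astrocyte (-0.05) and oligodendrocyte (-0.01) markers were near 0. The part of cell content in the values of the interferon regulatory factors was not tested.

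Genes above the factors in the pathway had lower values too. Of 21 sensors, adaptors and kinases upstream of the factors, 13 had an unadjusted p below 0.05, all lower, with a median log2 fold change of -0.73 and none past an adjusted p of 0.05 in edgeR. At that unadjusted p, 12.2% of all tested genes were called lower, the share to set beside this list and the pathway lists below. *Myd88*, the adaptor of most Toll-like receptors, had a log2 fold change of -0.81 ± 0.193 (SE; edgeR adjusted p = 0.110). *Tmem173*, which encodes STING, was at -0.86 ± 0.245, *Irak4* at -0.65 ± 0.190 and *Cgas*, the DNA sensor, at -0.59 ± 0.174, each with an edgeR adjusted p of 0.121. Between the kinases, *Ikbke* was at -1.05 ± 0.351 (edgeR adjusted p = 0.137), whereas *Tbk1*, at 32.8 CPM in both groups, had a log2 fold change of -0.001 ± 0.0523 (SE).

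The interferon genes themselves were hardly counted. Of 21 listed, none passed the filter and 7 had no count in any library. *Ifng* had 7 counts over the WT libraries and 4 over the *Tet2*-KO libraries, and *Ifnb1* had 2 and 1. No difference in interferon transcripts was detectable at this depth.

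Of 10 tested interferon receptor and JAK-STAT genes, 9 were lower at an unadjusted p below 0.05 (median -0.37), none past the adjusted p in edgeR. *Ifnar1*, a chain of the type I receptor, had a log2 fold change of -0.28 ± 0.0667, *Tyk2* of -0.28 ± 0.0819, *Ifngr2* of -0.28 ± 0.0851 and *Ifnar2* of -0.61 ± 0.180 (SE). *Stat2*, which encodes a partner of IRF9 in ISGF3, was at -0.46 ± 0.171 (SE; edgeR adjusted p = 0.154), beside -0.44 for *Irf9*.

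Of 10 tested DNA-binding partners and coactivators, 8 were lower at that p (median -0.68). *Batf*, the partner of IRF4 and IRF8 in lymphocytes and dendritic cells, was at -1.53 ± 0.382 (SE; edgeR adjusted p = 0.110), *Ikzf3* at -1.40 ± 0.361 and *Nfkb1* at -0.39 ± 0.109. *Batf* was near the lower limit of counting, at 1.67 CPM in the WT and 0.589 CPM in the *Tet2*-KO group. It can pass the filter on its WT level, which favours a lower call. *Spi1*, which encodes PU.1, the partner of IRF8 in myeloid cells, was at -0.89 ± 0.328 (edgeR adjusted p = 0.158), beside -0.92 for *Irf8*. The general coactivators *Crebbp* and *Ep300* had log2 fold changes of 0.05 and -0.08.

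Of 22 antiviral genes driven by ISGF3, all 22 had a log2 fold change below 0 and 17 had an unadjusted p below 0.05 (median -0.87, none past the adjusted p in edgeR). Without *Tet2*-KO replicate 5, 22 of 22 were called at the unadjusted p, while the share of all genes called lower went from 12.2% to 14.6%. *Usp18*, a deubiquitinase-like inhibitor of the interferon receptor, was at 17.3 ± 2.10 CPM against 8.67 ± 4.24 CPM (± SD over 6 mice; edgeR adjusted p = 0.123), with no overlap between the groups. *Oas2*, an activator of RNase L, had a log2 fold change of -1.23 ± 0.388 (SE), *Rsad2*, the antiviral protein viperin, at -1.24 ± 0.394, and *Mx2* at -0.64 ± 0.222.

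Of 21 targets of IRF1 and interferon-γ, 19 were lower at an unadjusted p below 0.05 (median -0.75, none past the adjusted p in edgeR). *Casp1*, the inflammasome protease, was at -0.72 ± 0.170 (SE; edgeR adjusted p = 0.110) and *Casp4* at -1.27 ± 0.332 (edgeR adjusted p = 0.114). *Tap2*, the peptide transporter of antigen presentation, was at -0.58 ± 0.160, and *Igtp*, an interferon-inducible GTPase, at -0.69 ± 0.208. Of 13 negative regulators of interferon signalling, 7 were lower at that p (median -0.47), among them *Socs3* (-1.38 ± 0.363), *Socs1* (-0.69 ± 0.210) and *Tnfaip3* (-0.58 ± 0.185), which encode inhibitors of cytokine and NF-κB signalling. Activators and inhibitors were both among the genes with lower values.

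At an adjusted p of 0.05, where edgeR called none of the genes in these 6 pathway lists, the other tests called some, all lower. Of all tested genes, 3.71% were called lower by DESeq2, 7.01% by limma-voom and 7.30% by edgeR without *Tet2*-KO replicate 5. For the sensors and kinases the number was 5 by DESeq2 and 15 by limma-voom, and for the receptors and JAK-STAT genes it was 6 and 8. For the DNA-binding partners it was 4 and 6, and for the negative regulators 4 and 6. For the ISGF3-driven genes it was 2 by DESeq2 and 22 by limma-voom, and for the IRF1 and interferon-γ targets 8 and 17. Without *Tet2*-KO replicate 5, edgeR called 12 sensors and kinases, 8 receptor and JAK-STAT genes, 6 partners, 6 negative regulators, 19 ISGF3-driven genes and 17 targets.

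The IRF2-binding proteins act as corepressors of IRF2. The log2 fold change was 0.09 for *Irf2bp1*, 0.00 for *Irf2bpl* and -0.19 for *Irf2bp2*, the last with an edgeR adjusted p of 0.171.

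**Figure D4:**
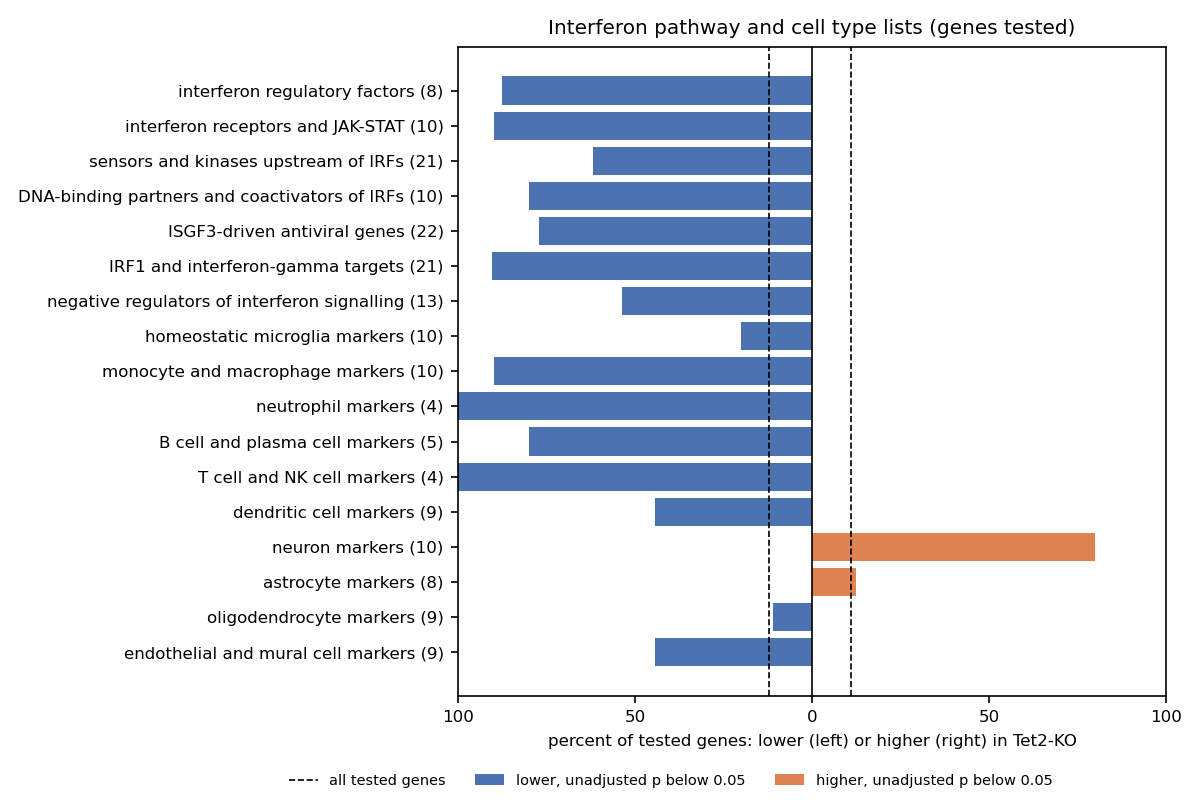
Share of the tested genes of each list (number tested in parentheses) that were lower (blue, left) or higher (orange, right) in the *Tet2*-KO group at an unadjusted edgeR p below 0.05, with dashed lines for all tested genes. The interferon lists and the lists of infiltrating cells reach to the left of the 12.2% line, and the neuron markers reach to the right. The homeostatic microglia list and the endothelial and mural cell list also reach to the left of that line.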

How the data were processed

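RNA from the brains was depleted of rRNA and sequenced as paired reads by the authors. Per the labels and the study's methods, reads were trimmed (Trimmomatic 0.36), aligned to mm10 (STAR 2.5.2b) and assigned to exons (featureCounts, Subread 1.5.2). The authors deposited raw counts per gene, which are the only unit used. The annotation release and the strand setting are not given in the sources used here, and GENCODE M21 named 49056 of 49315 genes.

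Counts were filtered (filterByExpr), scaled by TMM and tested with edgeR 4.0.16 (quasi-likelihood F test, robust, Benjamini-Hochberg over 20290 genes) in R 4.3.3. This test was chosen for counts in place of the authors' DESeq2 Wald test, which was run as an alternative (DESeq2 1.42.0), as were limma-voom 3.58.1 with quality weights, other scalings and filters, a replicate block, 1 surrogate variable (sva 3.50.0) and leaving out each mouse. The scripts were tested on simulated data with 200 changed genes. Permutation tests and ratios used log2(CPM + 0.1). Each library is 1 mouse. Libraries held 12000261 to 21049763 counts, and among the members low counts limit the precision of *Irf4* most.

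The groups are from the titles. The members and lists were chosen with earlier results of these data known. Named genes were the 8 members, the 3 genes most like each, at most 4 genes per list by unadjusted p, and the partners *Stat2*, *Spi1* and *Batf* and the kinases *Tbk1* and *Ikbke*. *Crebbp*, *Ep300*, *Ly6g*, *Ifng*, *Ifnb1* and the genes that overlap members were added after their values were seen. *P2ry12*, *Retnlg*, *Ngp*, *Camp*, *Ifih1* and *Bst2* are also outside this rule and were added in the same way. Some genes that this rule names are not reported here, nor is an alternative microglia reference, under which the permutation call of *Irf1* relative to microglia did not hold.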

Additional observations from a re-analysis of the deposited data

Results flagged for a closer look

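In the WT group, replicate 2 stood apart from the other 5 mice in *Irf1* (25.61 CPM), *Irf5* (45.98 CPM), *Irf8* (86.93 CPM) and *Irf9* (43.97 CPM). As a fraction of the whole range of the group, the gap to the next mouse was 0.676, 0.724, 0.740 and 0.645, above Dixon's critical value for 6 samples. In all, 16 groups of 6 values were examined, and chance flags about 1 in 20 groups. All 4 flags come from the same mouse and members that follow each other among mice, so that they are not 4 independent observations. Without this mouse, the median log2 fold change of the family was -0.48.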

How the results depend on the processing

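The direction of all 8 members was below 0 in every alternative but 1. With 1 surrogate variable, the log2 fold change was 0.19 for *Irf4*, 0.0815 for *Irf5*, 0.0033 for *Irf8* and 0.0363 for *Irf9*, the family median was -0.0556 and 1 member had an unadjusted p below 0.05. The cause was not tested. The number of members past the adjusted p was 0 by edgeR, 1 by DESeq2, 4 by DESeq2 on the genes of the edgeR filter, 5 by limma-voom, 7 by DESeq2 without *Tet2*-KO replicate 5 and 2 by edgeR without both WT replicate 2 and *Tet2*-KO replicate 5. With 1 mouse left out, it was 0 to 4 (4 without *Tet2*-KO replicate 5), the number at an unadjusted p below 0.05 was 4 to 7 (4 without WT replicate 2 or *Tet2*-KO replicates 2, 3 or 6), the permutation count was 5 to 7 and the family median was -0.75 to -0.48. The count relative to microglia markers was 4 in each of these fits. DESeq2's scaling, the upper quartile and no filter gave 0 members past the adjusted p and 6 at the unadjusted p. *Irf4* did not pass a filter of 10 counts in every library.

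Replicate numbers did not pair the mice. Deviations of same-numbered mice correlated between -0.17 and 0.23, and 1 of 6 WT mice correlated best with its own number. A replicate block called 0 members past the adjusted p, 7 at the unadjusted p, and gave a family median of -0.65. DESeq2, run without a filter, called 7 of 9 B cell and plasma cell markers and 7 of 10 T cell and NK cell markers lower at an unadjusted p below 0.05, against 4 and 4 by edgeR. Over all genes, 7.44% were called lower at that p by DESeq2 and 12.2% by edgeR. Depth limits *Irf4*, the interferon genes and low genes of the other lists, such as *Batf*.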
